A study of Mus musculus with 12 samples.

Results

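The comparison set cultures of mouse dendritic cells (DCs) meant to activate them against cultures without such a stimulus. All 12 libraries of the study entered, 6 activating and 6 non-activating. Members were chosen by culture condition, not by any measured value. The activating set was AlloTem 1 to 3 and LPS 1 to 3, and the non-activating set was SynTem 1 to 3 and DC only 1 to 3. In every group the DCs came from spleens of C57BL/6 (B6) mice that carried B16 melanoma cells secreting Flt3 ligand, which makes DCs expand. Beads removed T, B and NK cells and macrophages, and the DCs were cultured for 3 h and then sorted on CD11b and CD11c. DC only cells were cultured alone, LPS cells with lipopolysaccharide, a component of bacterial cell walls. SynTem cells were cultured with effector memory T cells of B6 mice, and AlloTem cells with memory T cells specific for alloantigen and of BALB/c origin. The T cells of AlloTem and SynTem therefore differed in strain as well as in specificity, and these cannot be told apart. The age and number of mice, the dose of LPS and whether replicates were separate animals or cultures are not stated here. The p-values set differences of group means against the spread among these libraries within groups, part of which may therefore be technical.

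The question was which genes change alike under alloreactive T cells and under LPS. DCs take up antigen, and on activation they move to lymph nodes, raise costimulatory proteins on their surface and secrete cytokines. LPS acts through the receptor TLR4 and its adaptors, which switch on the kinase cascades that activate NF-kB and AP-1 transcription factors. Memory T cells that recognise a DC act on it through CD40 ligand and through cytokines that signal by STAT proteins, so the routes differ while many target genes can be the same.

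The pooled contrast is the mean of the AlloTem and LPS group means minus the mean of the SynTem and DC only group means. It equals the average of the AlloTem arm (AlloTem minus SynTem) and the LPS arm (LPS minus DC only), and the arms have no library in common. A gene could thus be called in the pooled contrast from 1 strong arm, so each called gene reported below is given with both.

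Libraries held 13903574 to 21861156 counts, 16587165 or more in the activating and at most 19461531 in the non-activating set, and with every library thinned to the smallest total 19 genes were called as well, 18 of them the same. Batch numbers 1 to 3 were deposited for the libraries. Y-linked transcripts summed to 131 to 219.6 CPM (counts scaled to a common library total) in SynTem 2 and in the 4 libraries of batch 3, and to at most 10.3 CPM in the 7 others, so SynTem 2 stood apart from the other libraries of batch 2. Summed DC markers were 12989 to 26764 CPM. Of the 10 melanoma markers 5 had 0 counts in every library, and 2 had enough counts to be tested. The 10 summed to between 4.6 CPM (DC only 3) and 16.7 CPM (SynTem 3).

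Few genes passed in the pooled contrast, and most of those were higher in the activating cultures. Of 14413 genes tested 19 were called (quasi-likelihood test of edgeR, p adjusted by Benjamini-Hochberg, under 0.05), which is 0.132% of the genes: 16 rose (0.111%) and 3 fell (0.0208%). The risen genes included the cytokines Il1a and Il6, the early response gene Ier3, the microRNA host gene Mir155hg, the surface proteoglycan Sdc4 and the transcription factors Nfil3 and Irf4. Of the 16 rises 12 were at least 2-fold. At an unadjusted p under 0.05 there were 914 higher and 590 lower genes. With the batch as a block 61 genes were called (0.423%), 47 higher and 14 lower, and 17 of the 19 were among them. Sdc4 and Il6 were not, with block adjusted p-values of 0.0538 and 0.0565 (edgeR).

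The number of calls depended on single libraries. Without SynTem 2 no gene passed (edgeR, smallest adjusted p 0.0549, 1120 genes at an unadjusted p under 0.05), and with DC only 2 left out as well 1 gene passed, none of the 19. Without LPS 2, LPS 3, SynTem 3, DC only 1, DC only 2 or DC only 3 the counts were 1, 3, 3, 1, 2 and 1, and without LPS 1 or SynTem 1 they were 10 and 11. Without AlloTem 3 the count rose to 60. Every one of the 19 genes kept its direction in each of the 25 other fits that tested it. Ier3 passed in 11 of the 12 fits that left out 1 library, Nfil3 in 7, Rnase6 in 6, Pim3 and Mir155hg in 5 each, and the other 14 genes in 1 to 4.

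The 2 arms were unequal. In the AlloTem arm 24 genes were called, 22 of them higher. In the LPS arm 0 genes were called (edgeR, 531 at an unadjusted p under 0.05; 0 by limma voom and 10 by DESeq2), so in the edgeR fit over all 12 libraries the label of LPS as an activating culture was matched by no adjusted call. Both arms pointed the same way in 8696 genes, 60.3% of those tested. Across genes the log2 changes of the arms had a Pearson correlation of 0.102 and a Spearman correlation of 0.236, and the Pearson correlation was 0.335 over the 10147 genes with a mean of at least 5 CPM. Genes are not independent replicates, and these values are descriptions.

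Taking the larger of the 2 arm p-values for each gene, 0 genes passed after adjustment (edgeR, smallest adjusted p 1; 0 by voom and 3 by DESeq2). Before adjustment 176 genes had a p under 0.05 in both arms. Of these, 156 (1.08% of the genes tested) moved the same way and 20 moved in opposite directions. Higher in both were 111 genes (0.77%) and lower in both were 45. With the batch as a block 279 moved the same way and 29 opposite, and again 0 passed after adjustment. Of the 156 genes, 36 were members of the pathway lists described further on, 34 of them higher and 2 lower. Of all 14413 genes tested, 466 were members. The lists were chosen with earlier results of these data known, so this count is a description.

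**Figure D1:**
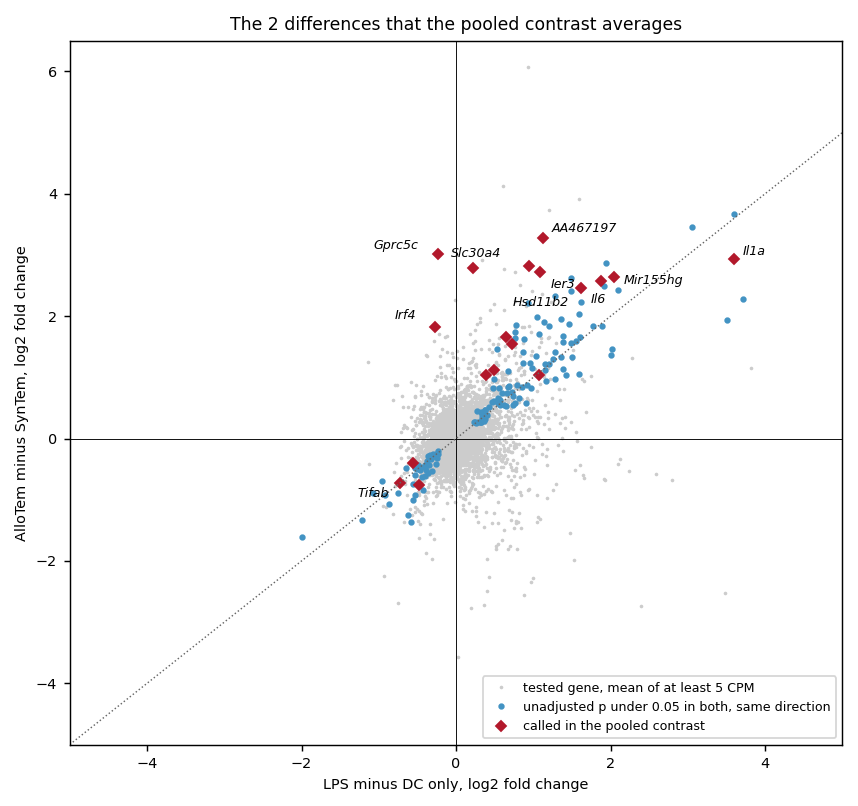
Each point is a gene with a mean of at least 5 CPM (grey), or at any level if called (red diamonds, 18 of the 19) or with an unadjusted p under 0.05 in both arms and the same direction (blue). The x axis is the log2 fold change of LPS against DC only and the y axis that of AlloTem against SynTem, with a dotted line where both are equal. Most of the rises lie above the line, and Gprc5c and Irf4 lie left of zero on the x axis.

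Among the 19 genes, 14 were positive in both arms, 3 were negative in both, and Gprc5c and Irf4 had opposite signs. In 15 of them both arms had an unadjusted p under 0.05. In the 4 others, Gprc5c, Slc30a4 and Irf4 among them, only the AlloTem arm did. The AlloTem arm was the larger in 14 of the 16 rises, the exceptions being Il1a and Gem, and 11 of the 19 were called in the AlloTem arm on its own. All 19 had the same direction in 3 of 3 batches. These counts describe genes that the contrast itself selected.

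Sequences are shown for the 4 rises with the smallest p that had a mean of at least 5 CPM, both arms positive, the 6 activating libraries all above the 6 others and an entry in the RefSeq promoter table, to show the sequence at rises whose 2 sets of libraries did not overlap. They were Ier3, Mir155hg, AA467197 and Sdc4. The promoters, 250 bases before to 50 after the RefSeq start in GRCm38.p6, read 5′ to 3′ on the gene's strand. Capitals mark the AP-1 letters TGANTCA in AA467197 and the kappaB letters in Sdc4 (GGGA, any 4 bases, then CC), where the match is on the opposite strand.
Ier3, chr17:35821463-35821762, plus strand: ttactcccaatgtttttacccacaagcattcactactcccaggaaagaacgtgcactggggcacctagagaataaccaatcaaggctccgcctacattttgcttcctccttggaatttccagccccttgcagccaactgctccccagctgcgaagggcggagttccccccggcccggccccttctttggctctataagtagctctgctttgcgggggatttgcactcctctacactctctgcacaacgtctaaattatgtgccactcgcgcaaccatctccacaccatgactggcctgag
AA467197, chr2:122637637-122637936, plus strand: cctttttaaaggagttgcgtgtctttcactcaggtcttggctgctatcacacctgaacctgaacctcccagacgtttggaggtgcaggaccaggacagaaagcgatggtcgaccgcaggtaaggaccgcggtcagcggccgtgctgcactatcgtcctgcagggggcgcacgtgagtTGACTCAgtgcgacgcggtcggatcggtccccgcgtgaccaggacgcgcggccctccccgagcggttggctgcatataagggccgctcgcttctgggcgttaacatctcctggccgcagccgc
Sdc4, chr2:164443139-164443438, minus strand: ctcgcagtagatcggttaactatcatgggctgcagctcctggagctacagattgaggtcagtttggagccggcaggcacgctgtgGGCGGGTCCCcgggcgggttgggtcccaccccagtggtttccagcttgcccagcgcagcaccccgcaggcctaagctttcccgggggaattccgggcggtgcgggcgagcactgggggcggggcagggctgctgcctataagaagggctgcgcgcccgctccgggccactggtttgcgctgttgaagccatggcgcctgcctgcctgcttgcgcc
The AP-1 match of AA467197 begins 73 bases before the start and the kappaB match of Sdc4 165 bases before it. Ier3 held none of the 6 motifs as spelled here. Sites of these factors with other letters were not searched, so their absence from a window is not shown. The RefSeq starts of Ier3, AA467197 and Sdc4 lie inside the gene as the annotation used for the counts draws it. The window for Mir155hg is not printed, because it begins 9606 bases after the start of the gene in the annotation used for the counts. Instead the 2 mature microRNAs that its transcript carries are shown, with the seed (bases 2 to 8) in capitals.
mmu-miR-155-5p, chr16:84714143-84714165, plus strand: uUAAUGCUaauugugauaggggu
mmu-miR-155-3p, chr16:84714182-84714202, plus strand: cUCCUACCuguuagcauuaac
Mature microRNAs were not measured, so the values below are those of the host transcript.

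Of the 16 called rises 11 had a promoter in the RefSeq table. These include Mir155hg, whose window held none of the 6 motifs and does not lie at the gene start used for the counts. The 6 motifs were searched on both strands, and where a symbol had several promoters the first listed was taken. The kappaB letters were found in 3 of the 11 (Il6, Irf4 and Sdc4), or 27.3%, against 26% of the promoters of 10158 tested genes. AP-1 letters were found in AA467197, Il1a and Il6, also 27.3%, against 4.97%. The TATA box letters TATAAA were found in Il1a, Irf4 and Slc2a1 against 6.98% of all. None of the 11 held the CRE letters TGACGTCA, the ISRE core (GAAA, any 2 bases, GAAA) or the GAS core TTCNNNGAA, which 3.24%, 3.36% and 7.08% of all promoters held. Among the genes with a p under 0.05 and a rise in both arms, 80 had a promoter. Of these 28.8% held the kappaB letters, 13.8% AP-1, 7.5% CRE, 2.5% the ISRE core, 8.75% the GAS core and 10% TATA. These are descriptions of exact letters in a short window and were not tested. Shares of the kappaB letters are not shares of all kappaB sites, because other spellings were not searched.

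Called cytokines were Il1a, with the largest fold of the 19, and Il6. Il1a encodes interleukin 1 alpha, which signals through the interleukin 1 receptor. Il1a was at 4.70, 6.85 and 2.17 CPM in AlloTem 1 to 3, at 1.95, 1.37 and 1.62 CPM in LPS, at 0.297, 0.317 and 1.13 CPM in SynTem and at 0.0626, 0.228 and 0.0980 CPM in DC only. All 6 activating libraries lay above the 6 others, and the nearest was SynTem 3. The pooled log2 change was 3.27 ± 0.46 (SE), a 9.62-fold rise (edgeR adjusted p = 0.0320), with 2.94 in the AlloTem arm and 3.59 in the LPS arm. The level was low: the DC only libraries held 1, 4 and 2 reads of Il1a, and 11.2% of its exon bases overlap Gm14023 on the opposite strand. Il6 encodes interleukin 6. Levels of Il6 were 36.6, 40.3 and 22.6 CPM in AlloTem, 20.6, 14.01 and 9.30 CPM in LPS, 4.61, 2.79 and 9.31 CPM in SynTem and 5.13, 4.85 and 2.01 CPM in DC only. LPS 3 and SynTem 3 met at about the same level and the other libraries did not overlap. Il6 rose by 2.22 ± 0.35 on the log2 scale (edgeR adjusted p = 0.0495), by 2.57 in the AlloTem arm and 1.88 in the LPS arm.

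Mir155hg is the host gene of miR-155, a microRNA of activated immune cells. Mir155hg (ENSMUSG00000097418, chr16:84703167-84715245, plus strand) was at 24.6, 47.9 and 13.5 CPM in AlloTem, 14.7, 21.96 and 21.6 CPM in LPS, 6.54, 3.42 and 3.85 CPM in SynTem and 6.01, 4.91 and 3.18 CPM in DC only. The 2 sets did not overlap, and the AlloTem and LPS levels did. The rise of Mir155hg was 5.08-fold (log2 2.35 ± 0.32, edgeR adjusted p = 0.0320), with 2.64 in the AlloTem arm and 2.05 in the LPS arm. The difference between its arms was 0.59 (95% interval -0.76 to 1.94).

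Ier3, an early response gene linked to cell survival, had the smallest p of all genes. Ier3 (ENSMUSG00000003541, chr17:35821684-35822923, plus strand) was at 287, 246 and 289.9 CPM in AlloTem and 52.1, 50.6 and 85.6 CPM in LPS. It was at 28.2, 46.9 and 49.4 CPM in SynTem and 34.8, 31.98 and 22.4 CPM in DC only. AlloTem was far above all other groups, and the lowest LPS library lay just above the highest SynTem library. Ier3 rose 3.74-fold (log2 1.90 ± 0.19, edgeR adjusted p = 0.0120). Its change was 2.72 in the AlloTem arm and 1.08 in the LPS arm, a difference of 1.64 (95% interval 0.84 to 2.45, edgeR adjusted p = 0.717 over all genes).

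AA467197, known also as the host of miR-147, and the heparan sulfate proteoglycan Sdc4 (syndecan 4) had a like order of groups. AA467197 (ENSMUSG00000033213, chr2:122636986-122641191, plus strand) was at 18.7, 54.7 and 17.5 CPM in AlloTem, 5.91, 8.67 and 6.55 CPM in LPS, 2.16, 4.05 and 3.08 CPM in SynTem and 3.82, 3.83 and 2.06 CPM in DC only. It rose by 2.20 ± 0.33 on the log2 scale (edgeR adjusted p = 0.0413), by 3.28 in the AlloTem and 1.13 in the LPS arm. The 6 activating libraries were above the 6 others, with AlloTem 2 the highest. Sdc4 (ENSMUSG00000017009, chr2:164424247-164443887, minus strand) was at 258, 408 and 145 CPM in AlloTem, 106, 99.5 and 104 CPM in LPS, 41.4, 28.0 and 45.2 CPM in SynTem and 66.8, 65.7 and 27.7 CPM in DC only. Sdc4 rose by 1.89 ± 0.28 (edgeR adjusted p = 0.0487), by 2.82 and 0.95 in the AlloTem and LPS arms. For both genes the LPS libraries lay between AlloTem and the non-activating set.

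**Figure D2:**
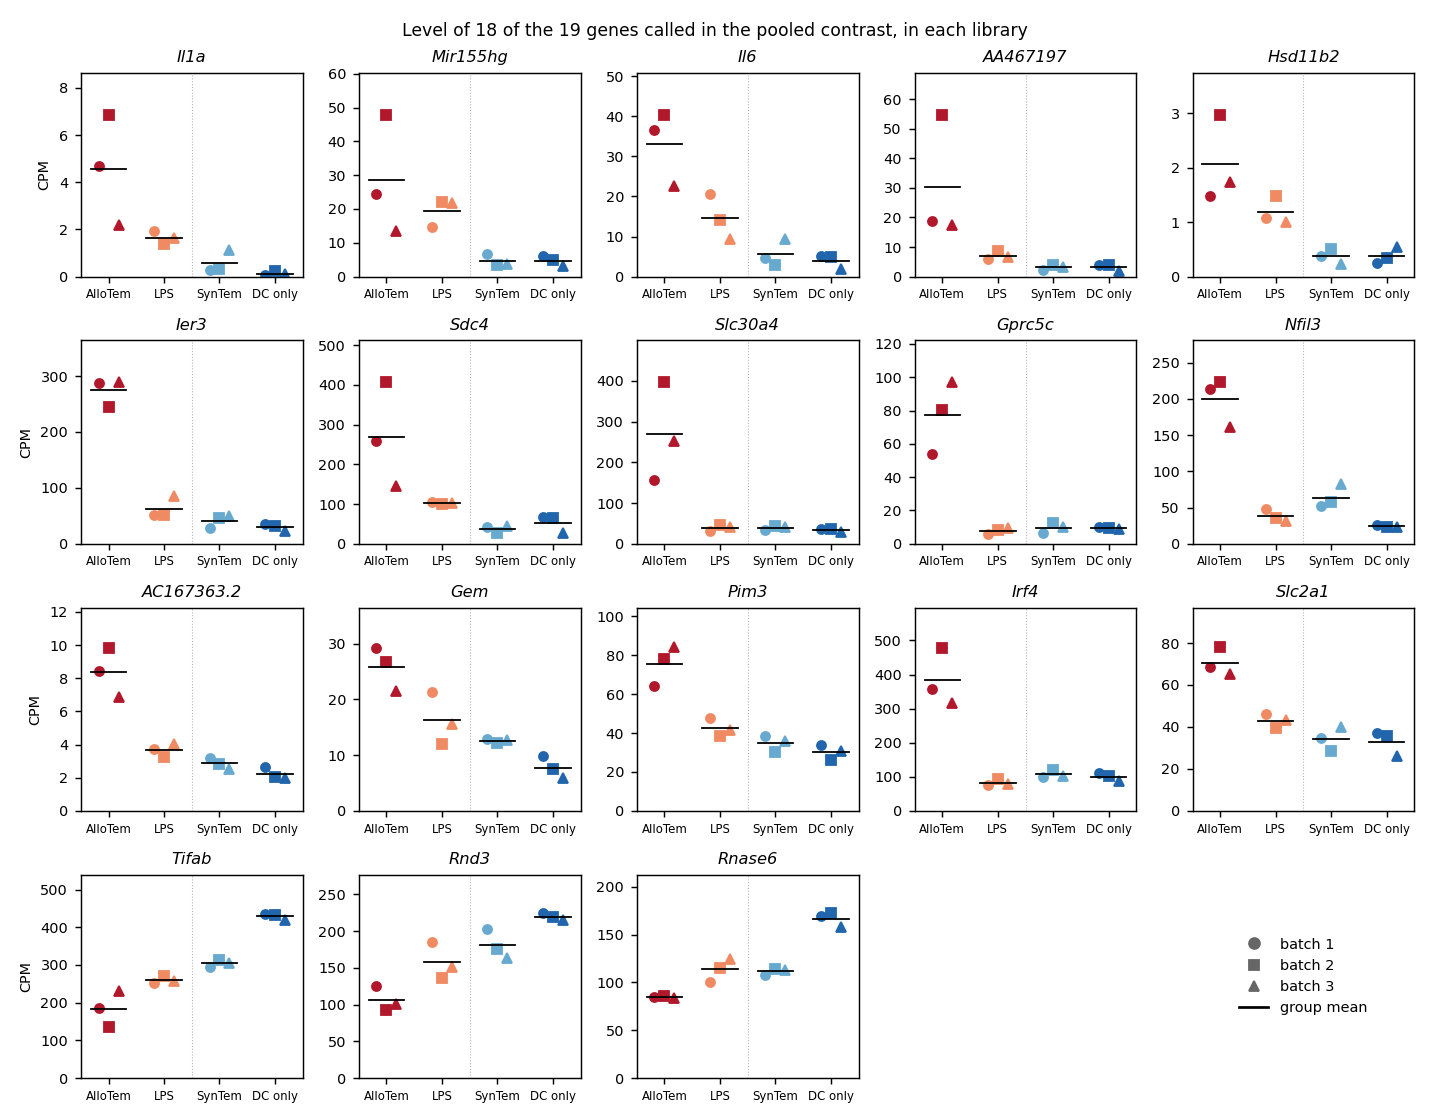
CPM of 18 of the 19 called genes in the 12 libraries, by group, with symbols for the batch and a line at the group mean; every y axis starts at 0. For Il1a, Mir155hg, AA467197, Ier3 and Sdc4 the AlloTem and LPS points all lie above the SynTem and DC only points, and for Tifab they all lie below. Irf4, Gprc5c and Slc30a4 are raised in AlloTem alone.

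Nfil3, Pim3 and Slc2a1 were the 3 called members of the STAT5 response list. Nfil3 is a transcription factor induced by several cytokines, Pim3 a serine/threonine kinase and Slc2a1 the glucose transporter GLUT1. The lowest, median and highest levels of Nfil3 were 31.2, 105 and 224 CPM in the activating and 23.4, 39.0 and 81.9 CPM in the non-activating set. Nfil3 rose by 1.15 ± 0.15 (edgeR adjusted p = 0.0320), by 1.65 in the AlloTem arm and 0.64 in the LPS arm. Its 2 sets overlapped, because all 3 SynTem libraries (51.6, 57.4 and 81.9 CPM) lay above the 3 LPS libraries (48.4, 35.4 and 31.2 CPM). SynTem was itself above DC only for Nfil3 (log2 1.37, edgeR adjusted p = 0.0480). Pim3 spanned 38.5 to 84.2 CPM in the activating and 26.0 to 38.7 CPM in the non-activating set and rose by 0.80 ± 0.10 (edgeR adjusted p = 0.0320). Slc2a1 spanned 39.4 to 78.1 CPM and 26.0 to 39.9 CPM and rose by 0.71 ± 0.11 (edgeR adjusted p = 0.0495). In the AlloTem and LPS arms the changes were 1.11 and 0.49 for Pim3 and 1.04 and 0.38 for Slc2a1. For both genes, 1 SynTem library just exceeded the lowest LPS library.

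Gem, Hsd11b2 and AC167363.2 were positive in both arms. Gem, a small GTP-binding protein, spanned 11.9 to 29.2 CPM in the activating and 5.83 to 12.9 CPM in the non-activating set. Gem had nearly equal arms, 1.04 and 1.07 (pooled 1.06 ± 0.17, edgeR adjusted p = 0.0495, difference of the arms -0.03, 95% interval -0.75 to 0.69). Hsd11b2, the enzyme that inactivates glucocorticoids, and the predicted transcript AC167363.2 fell outside the naming rule and were chosen after their values were seen. Hsd11b2 stayed at or below 2.98 CPM (pooled 2.04 ± 0.33, edgeR adjusted p = 0.0495), with arms of 2.45 and 1.62. AC167363.2 rose by 1.14 ± 0.15 (edgeR adjusted p = 0.0320), by 1.55 in the AlloTem and 0.73 in the LPS arm. Of its exon bases 26.1% overlap Cdkn1a on the opposite strand. Strand use in the counting is unknown, so reads of the pair cannot be told apart.

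Irf4, Gprc5c and Slc30a4 were high in AlloTem, with LPS near the levels of the non-activating set. Irf4, a transcription factor needed by conventional type 2 DCs, was at 358, 477 and 316 CPM in AlloTem, 76.2, 93.5 and 78.9 CPM in LPS, 101, 121 and 102 CPM in SynTem and 111, 102 and 89.0 CPM in DC only. LPS levels of Irf4 were within or below those of the non-activating set. Its pooled change of 0.78 ± 0.11 (edgeR adjusted p = 0.0358) averaged 1.83 in the AlloTem arm and -0.28 in the LPS arm. The difference between the arms was 2.10 (95% interval 1.61 to 2.60, edgeR adjusted p = 0.0212). Gprc5c, a G protein-coupled receptor with no known ligand, was at 54.1, 80.5 and 97.2 CPM in AlloTem and at 6.09 to 12.2 CPM in the 9 other libraries. Its arms were 3.01 and -0.23, and they differed by 3.24 (95% interval 2.41 to 4.08, edgeR adjusted p = 0.0281). Irf4 and Gprc5c were the 2 genes of 14413 (0.0139%) called for a difference between the arms (edgeR). Slc30a4, a zinc transporter, was at 157, 398 and 252 CPM in AlloTem and 29.5 to 46.2 CPM in the 9 other libraries. Its arms were 2.79 and 0.22, a difference of 2.57 (95% interval 1.66 to 3.47) that did not pass (edgeR adjusted p = 0.183).

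The genes that fell in the pooled contrast were Tifab, Rnd3 and Rnase6. Tifab, a relative of the TRAF-interacting protein TIFA, was at 187, 136 and 230.0 CPM in AlloTem, 252, 272 and 257 CPM in LPS, 295, 312 and 305 CPM in SynTem and 435, 433 and 419 CPM in DC only. The 6 activating libraries of Tifab were below the 6 others, and the groups did not overlap at all. Tifab fell by 0.72 ± 0.11 on the log2 scale (edgeR adjusted p = 0.0393), with -0.72 in each arm. Rnd3 spanned 92.6 to 185 CPM in the activating and 163 to 224 CPM in the non-activating set and fell by 0.62 ± 0.10 (edgeR adjusted p = 0.0495). Rnase6, a secreted ribonuclease with antimicrobial activity, spanned 83.3 to 125 CPM and 107 to 173 CPM and fell by 0.47 ± 0.06 (edgeR adjusted p = 0.0320). For Rnase6 the LPS and SynTem libraries overlapped, and SynTem was below DC only (log2 -0.58, edgeR adjusted p = 0.0436). The AlloTem and LPS arms were -0.76 and -0.48 for Rnd3 and -0.39 and -0.55 for Rnase6. All 3 falls were under 2-fold.

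Complete separation of the sets was more frequent than calls. In 60 genes (0.416% of those tested) the 6 activating libraries were all above the 6 others, and in 36 genes (0.25%) all below. Of the 16 called rises 8 were among the first and of the 3 falls 1, Tifab, among the second. Further genes of the first kind were Cd80, Gadd45b, Tnfaip3 and Bcl2a1a. Gadd45b, a stress protein that restrains JNK signalling, was at 214, 284 and 141 CPM in AlloTem, 173, 169 and 159 CPM in LPS, 130.2, 61.3 and 82.2 CPM in SynTem and 85, 75.1 and 66.1 CPM in DC only. AlloTem 3 and SynTem 1 were the closest of the 2 sets. The pooled change of Gadd45b was 1.19 ± 0.20 (edgeR adjusted p = 0.0594, 0.0427 with the batch as a block) with arms of 1.22 and 1.15.

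The block brought in 44 genes that the fit without it did not call. Among the named genes these were Gadd45b, the early transcription factor Egr1 (1.98, edgeR adjusted p = 0.0374 with the block), the neutrophil chemokine Cxcl2 (2.45, 0.0487), the ribonuclease Zc3h12a that degrades cytokine transcripts (0.65, 0.0120) and, lower, the CD30 ligand Tnfsf8 (-0.95, 0.0144). Named after their values were seen, the block also called the early factor Egr3, the inhibitor of differentiation Id1, the polo-like kinases Plk2 and Plk3, the nuclear NF-kB regulator Nfkbid, the AP-1 member Fosl2 and the death protein Bcl2l11. Their block log2 changes were 1.64 for Egr3, 1.95 for Id1, 1.68 for Plk2, 1.11 for Plk3, 0.86 for Nfkbid, 0.84 for Fosl2 and 0.72 for Bcl2l11. For Id1 and Fosl2 the SynTem means (7.35 and 93.2 CPM) lay above the LPS means (2.34 and 58.6 CPM). For Egr3, Plk2, Plk3, Nfkbid and Bcl2l11 the LPS mean was the higher. The interleukin 6 signal transducer Il6st was lower (-0.47, edgeR adjusted p = 0.0487 with the block). Tnfsf8 was at 7.46 to 11.5 CPM in the activating and 14.7 to 29.5 CPM in the non-activating set, without overlap.

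Pathway lists placed the called genes among others of the same function. Of 466 tested members of 25 lists, 360 were positive in the pooled contrast and 8 were called, all higher. Of all 14413 genes 48.9% were positive, and the median over all genes was 0.00 on the log2 scale. Over all genes 0.132% were called, and 0.423% with the block (edgeR). At an unadjusted p under 0.05, 914 of the 14413 were higher and 590 lower. The list counts below are to be read beside these. Lists and members were chosen with earlier results of these data known, so the counts are descriptions.

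Inflammatory cytokines had the highest median of the 25 lists, and chemokines lay in the middle. SynTem was itself above DC only, by a median of 0.90 in the cytokine list and 1.26 in the chemokine list. The LPS arm had medians of 0.87 and 0.68. For mature migratory DC genes, costimulatory proteins and NF-kB subunits the SynTem minus DC only medians were 0.28, 0.14 and -0.08. The label non-activating is therefore given by design, not by measured level. Of 19 tested inflammatory cytokines 18 were positive (median 1.12, AlloTem arm 1.11, LPS arm 0.87), Il1a and Il6 rose, and 4 (Il1a, Il6, Il10 and Il1b) had a p under 0.05 in both arms. Il1b was at 1044, 1059.8 and 453 CPM in AlloTem, 971, 743 and 432 CPM in LPS, 439.7, 87.1 and 97.6 CPM in SynTem and 295, 300.0 and 115 CPM in DC only. SynTem 1 lay just above LPS 3, and the change of Il1b was 1.82 ± 0.47 (edgeR adjusted p = 0.201). For Tnf, Il12b and Osm the pooled changes were 0.98, 1.80 and 1.5 (edgeR adjusted p = 0.479, 0.298 and 0.110). Of 15 chemokines 12 were positive (median 0.51), and 0 were called (edgeR, 6 higher at an unadjusted p under 0.05; with the block Cxcl2). Cxcl2 had arms of 1.15 and 3.81, and Ccl17, a chemokine for CCR4-bearing T cells, had arms of 6.07 and 0.92. Ccl17 was at 66.0 CPM or more in AlloTem and at most 2.49 CPM in all other libraries, so that its pooled change of 3.5 was that of AlloTem. Ccl22, of the same receptor, had arms of 3.74 and 1.21.

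**Figure D3:**
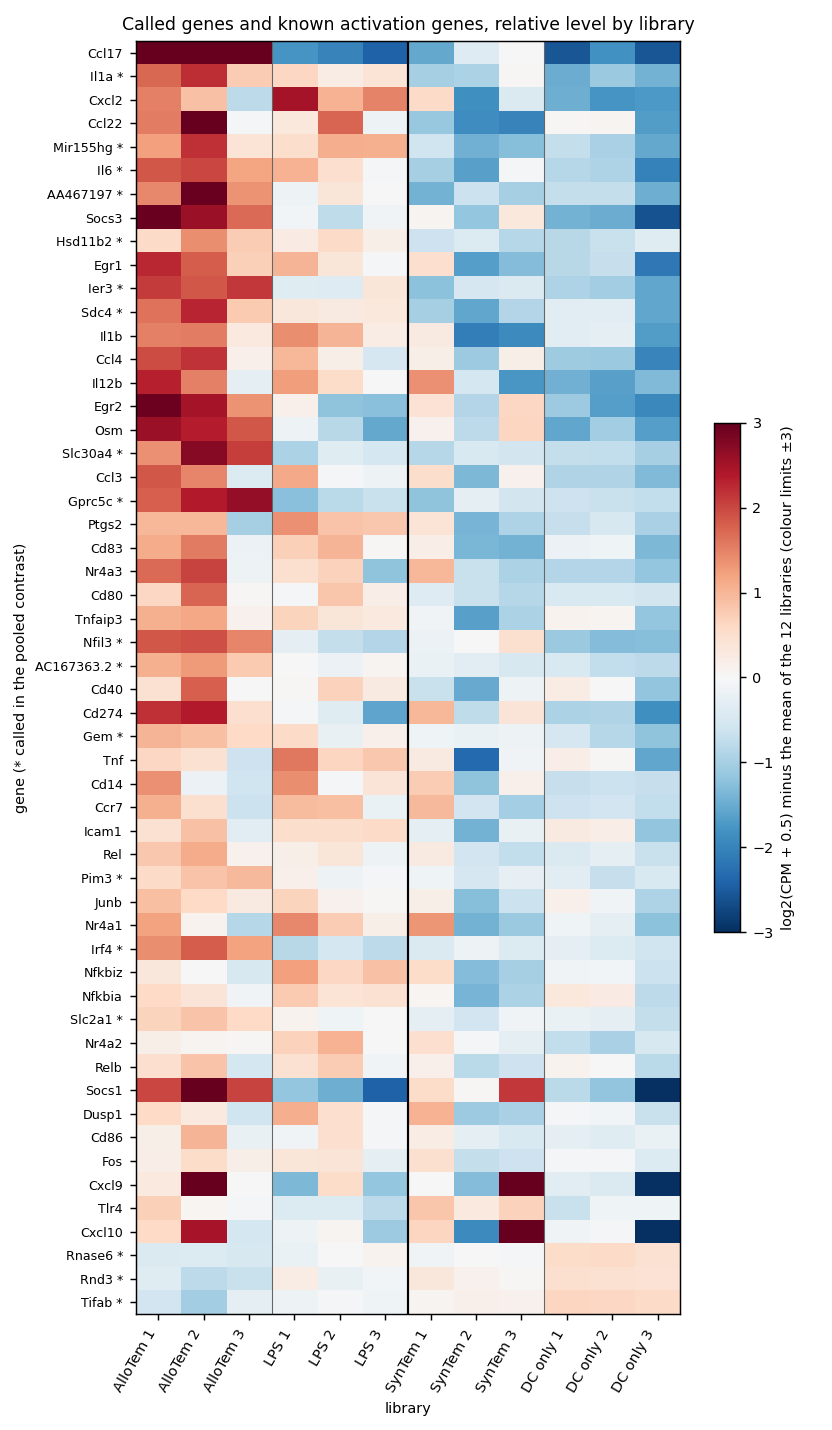
Relative level, as log2(CPM + 0.5) minus the mean of the 12 libraries, of 18 called genes (starred) and of preset activation genes in each library, sorted by the pooled change. The black line separates the activating from the non-activating set. Within SynTem, library 1 is higher than 2 and 3 for many early genes, and batch 3 is lower within DC only.

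Surface and maturation genes were mostly positive with no single call. All 30 tested genes of mature migratory DCs were positive (median 0.83, arms 0.79 and 0.83), 0 were called (edgeR, 21 at an unadjusted p under 0.05), and 27 were positive in both arms. Their summed level was 6513, 8078 and 3013 CPM in AlloTem and 5609, 6102 and 3860 CPM in LPS. It was 4595, 2205 and 2225 CPM in SynTem and 3653, 3567 and 2439 CPM in DC only. AlloTem 3 thus lay below SynTem 1, DC only 1 and DC only 2, and above SynTem 3 and DC only 3 of its batch. The same order held for the summed costimulatory list, with AlloTem 3 at 3428 CPM. In that list LPS was at 4869, 5086 and 4249 CPM, above every SynTem and DC only library. Of 21 costimulatory and coinhibitory proteins 18 were positive with a median of 0.76, and 0 were called (edgeR, 12 at an unadjusted p under 0.05). Cd80, a ligand of CD28, was at 81.7, 179 and 54.7 CPM in AlloTem, 51.4, 94.98 and 61.2 CPM in LPS, 40.2, 32.9 and 28.9 CPM in SynTem and 38.3, 38.5 and 35.8 CPM in DC only. The sets of Cd80 did not overlap (pooled 1.25 ± 0.27, edgeR adjusted p = 0.123). Cd40 and Cd83 had pooled changes of 1.10 and 1.37, and Cd86 and the homing receptor Ccr7 0.50 and 0.85 (edgeR adjusted p = 0.327, 0.262, 0.447 and 0.479). Their sets overlapped, for Ccr7 because SynTem 1 was at 464 CPM. Il4i1, an amino acid oxidase, had a change of 1.67, and 86.3% of its exon bases overlap other genes.

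Signalling and early response lists followed. Of 33 immediate early factors 29 were positive (median 0.69, arms 0.79 and 0.51), Ier3 and Nfil3 rose, and with the block 5 rose. The change of Egr1 was 1.93, of Egr2 1.59, of Junb 0.80 and of Fos 0.43, and that of Nr4a2 was 0.01 in the AlloTem arm and 1.37 in the LPS arm. NF-kB inhibitors and feedback genes had 15 of 16 members positive (median 0.39), led by the deubiquitinase Tnfaip3 at 1.15 ± 0.30 (edgeR adjusted p = 0.212). NF-kB subunits and activators had 14 of 16 positive (median 0.32), with Rel at 0.81 and Relb at 0.67. MAP kinase phosphatases and feedback genes had 14 of 17 positive (median 0.63) and mRNA decay genes 8 of 11 (median 0.57). In these 4 lists 0 members were called (edgeR). At an unadjusted p under 0.05, 8 NF-kB inhibitors, 5 NF-kB subunits, 8 phosphatases and 4 mRNA decay genes were higher, and with the block 2, 0, 1 and 2 were called. Of the 25 genes of Toll-like receptor and LPS recognition 11 were positive (median -0.02), with the LPS coreceptor Cd14 at 0.88 and Tlr4 itself at -0.30.

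Cytokine response lists leaned to the AlloTem arm. STAT5 response genes had 16 of 18 members positive, medians of 1.05 in the AlloTem and 0.54 in the LPS arm, and 3 rises, Nfil3, Pim3 and Slc2a1. STAT6 response genes had 18 of 20 positive, medians of 1.10 and 0.26, and 1 rise, Irf4. SOCS and cytokine feedback genes had 10 of 12 positive and 0 called (edgeR, 4 at an unadjusted p under 0.05), with medians of 0.51 and 0.04. Socs3, the feedback inhibitor of STAT3 signals, was at 1181, 913 and 493 CPM in AlloTem, 142, 89.8 and 142 CPM in LPS, 160.5, 67.6 and 190.4 CPM in SynTem and 56.1, 53.4 and 24.5 CPM in DC only. The LPS and SynTem levels of Socs3 overlapped (pooled 2.06 ± 0.33, edgeR adjusted p = 0.0528).

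The interferon gamma response had the lowest median of the 25 lists, and the type I interferon response lay near that of all genes. In the type I interferon response 21 of 33 members were positive (median 0.08), and within batches 1, 2 and 3 the median was -0.52, 1.36 and -0.74. In the interferon gamma response 8 of 24 were positive (median -0.23), and SynTem was above DC only by a median of 1.89. In both lists 0 members were called (edgeR, 0 and 4 at an unadjusted p under 0.05). Cxcl10 was at 1422 CPM in SynTem 3 and at most 595 CPM elsewhere, and Cxcl9 at 517 CPM in SynTem 3 and 553 CPM in AlloTem 2. Their pooled changes were -0.33 ± 0.89 and 0.34 ± 0.92 (edgeR adjusted p = 0.946 and 0.947), and both signs turned under some alternatives.

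Metabolic and presentation lists had medians near those of all genes. They were 0.01 for glycolysis and hypoxia response (13 of 26 positive), 0.06 for oxidative phosphorylation (22 of 24), 0.10 for cholesterol synthesis (15 of 21), 0.22 for MHC class II (13 of 15) and 0.10 for MHC class I presentation (17 of 19). Slc2a1 was the 1 called member of these lists. Heat shock genes had 18 of 19 positive with a median of 0.25, with Hspa1a, which has the near-identical copy Hspa1b, at 0.60. Survival genes had 17 of 21 positive (median 0.33). Among them Bcl2a1a, also a member of a family of near-identical copies whose reads the counting may split, had 22.7 to 51.7 CPM in the activating and 11.8 to 22 CPM in the non-activating set (1.09 ± 0.18, edgeR adjusted p = 0.0570). Secreted effectors and matrix genes had 20 of 22 positive (median 0.79), and Sdc4 rose. Endocytic and pattern receptors had 14 of 22 positive (median 0.12).

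**Figure D4:**
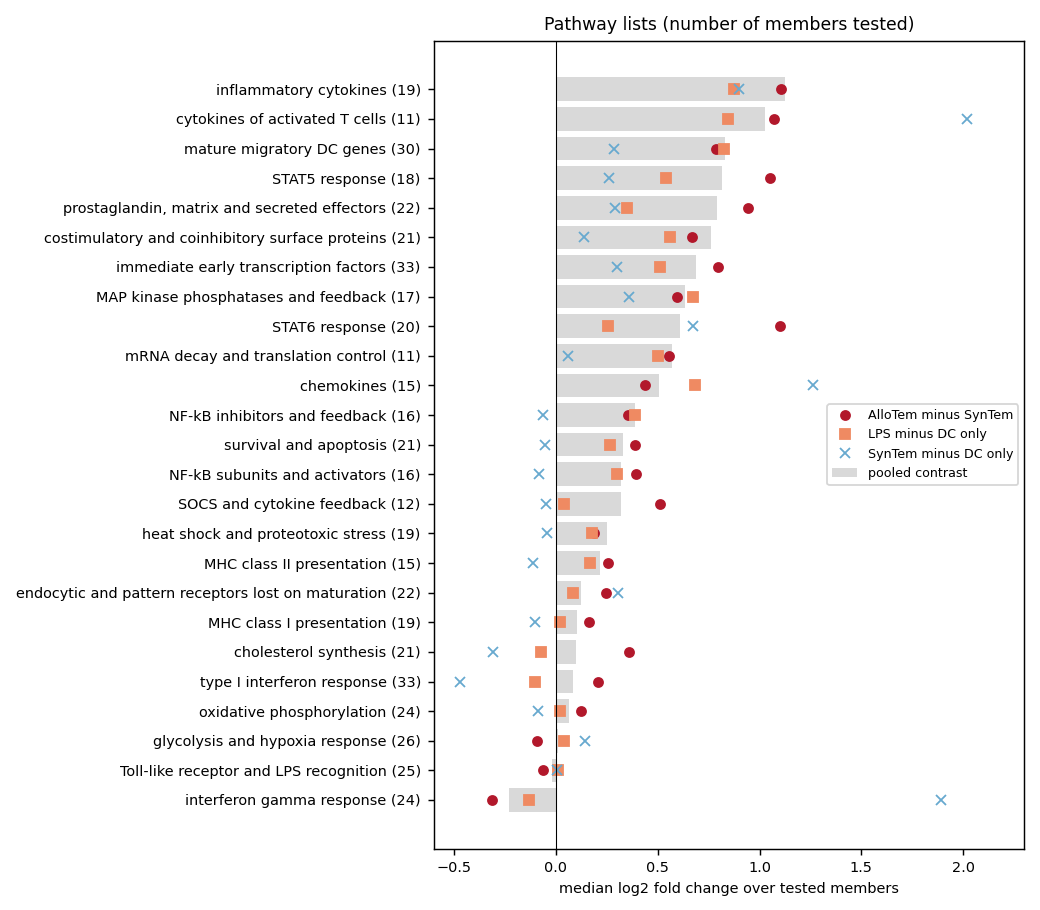
Median log2 fold change over the tested members of each of the 25 pathway lists (number tested in brackets): grey bars for the pooled contrast, symbols for AlloTem minus SynTem, LPS minus DC only and SynTem minus DC only. In the inflammatory cytokine, mature DC and costimulatory lists both arms have positive medians, and in the STAT6 list AlloTem minus SynTem (1.10) lies well above LPS minus DC only (0.26).

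Markers of other cells also differed between libraries, and in bulk samples fewer cells of a type and less RNA per cell cannot be told apart. Of 25 T cell markers, 22 were negative in the pooled contrast, with a median of -0.51 that averaged -1.56 in the AlloTem arm and 0.54 in the LPS arm. Their summed level was 172 to 336 CPM in AlloTem, 78.5 to 203 CPM in LPS, 334 to 785 CPM in SynTem and 72.3 to 114 CPM in DC only. Among cytokines of activated T cells 9 of 11 tested members were positive (median 1.03), and 0 were called (edgeR, 2 higher and 1 lower at an unadjusted p under 0.05). With the log2 sum of T cell markers as a covariate, added after the data were seen, 1 gene was called, Nfil3 (edgeR adjusted p = 0.0311), and all 19 kept their direction. The covariate itself differed between the groups, so this fit cannot separate T cell RNA from culture condition. The part of T cell RNA in the called genes was not tested.

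Erythroid and platelet markers were positive in 10 of 10 tested genes (median 1.18). Their sums were 69.9 to 101 CPM in AlloTem, 55.1 to 117 CPM in LPS, 43.3 to 44.8 CPM in SynTem and 25.5 to 58.8 CPM in DC only. Basophil and mast cell markers were positive in 10 of 11 (median 1.36, sums 713 to 858, 632 to 804, 668 to 721 and 708 to 741 CPM in the same order), and macrophage markers in 11 of 12 (median 0.92, sums 128 to 330, 158 to 301, 129 to 369 and 157 to 182 CPM). NK cell markers summed to 182 to 1152 CPM and neutrophil markers to 50.5 to 999 CPM over all libraries, the latter highest in SynTem 3. No member of these 5 lists was called (edgeR, 4, 2, 2, 0 and 1 higher at an unadjusted p under 0.05, in the order given). Over all 14413 genes 914 were higher at that threshold. Their part in the results above was not tested.

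**Figure D5:**
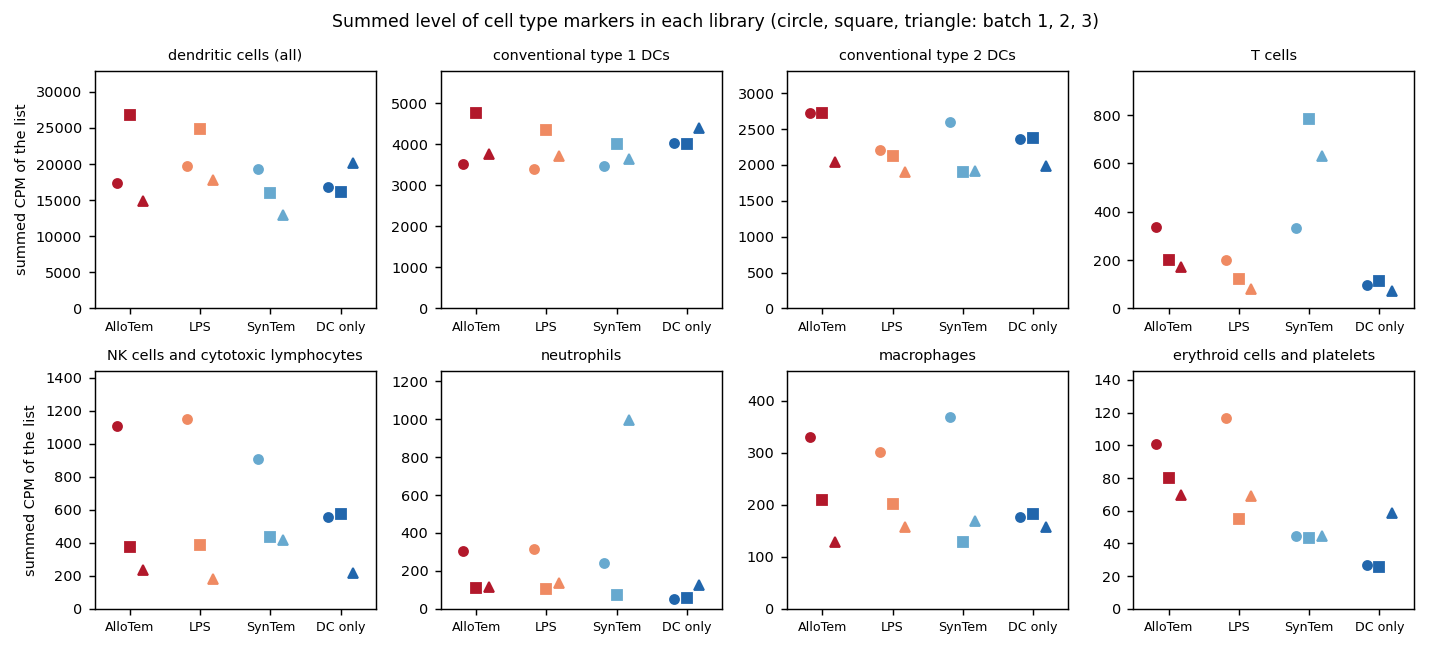
Summed CPM of the members of 8 cell type lists in each library, by group, with circles, squares and triangles for batches 1, 2 and 3; every y axis starts at 0. T cell markers are highest in SynTem 2 and 3, and erythroid and platelet markers are higher in the AlloTem and LPS libraries than in SynTem.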

How the data were processed

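RNA was sequenced from 12 libraries (single-end, NextSeq, TruSeq, per the labels' protocols). The authors deposited raw gene counts for 57009 identifiers and a table of batch numbers. The submitters' processing notes name the build mm10, while the aligner, counter and strand setting were not given in the sources used here. Gene names and positions were taken from GENCODE (GRCm38), with 52028 identifiers matched, and sequences from RefSeq GRCm38.p6.

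Genes passing filterByExpr (14413) were scaled by TMM and fitted with the quasi-likelihood model of edgeR 4.0.16 (R 4.3.3) over all 12 libraries, without a block, with Benjamini-Hochberg adjustment over all genes tested at 0.05. CPM use TMM-scaled totals. Both-arm p-values are the larger of the arms' p-values. Groups came from the labels. Depth of 13903574 to 21861156 counts limits genes of about 1 CPM to few reads, and counting error is only part of the spread. The script was tested on simulated data.

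Batch numbers equal the replicate numbers, so the labels' numbers follow the deposited batches. What a batch was is not stated. Over 18 same-batch pairs the correlation of deviations from group means had a median of 0.338 (range -0.402 to 0.784), 14 being over 0.1, and other pairs had a median of -0.295. Deviations sum to 0 within each group, which draws the other pairs below 0, so their median is no independent background.

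Named genes were called genes with a mean of at least 5 CPM (up to 15 rises and 8 falls), 40 preset genes, called or smallest-p members of each list, and genes called for the arm difference. The comparison, gene lists and tests were chosen with earlier results of these data known. Alternatives were other scalings, filters, covariates, left-out libraries, thinning, limma voom (3.58.1) and DESeq2 (1.42.0). 1 called gene is not reported here.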

Additional observations from a re-analysis of the deposited data

Results flagged for a closer look

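Irf4 and Gprc5c were singled out because their response to alloreactive T cells and their response to LPS differed by a direct test. For Irf4 the AlloTem arm exceeded the LPS arm by a log2 difference of 2.105 (edgeR adjusted p = 0.0212). All 3 AlloTem libraries (316 to 477 CPM) lay above the 9 others. For Gprc5c the difference was 3.242 (edgeR adjusted p = 0.0281), again with all 3 AlloTem libraries above the 9 others. AlloTem and SynTem differ in T cell strain as well as in specificity, and these cannot be told apart.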

How the results depend on the processing

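In the pooled contrast 19 genes were called. The count was 31 with no low-count filter, 61 with the replicate block, 53 with Y-linked transcripts as a covariate, 1 with T cell markers as a covariate (chosen after seeing the data), 1 without DC only 2 and SynTem 2, 2 without batch 3, 4 by limma voom and 282 by DESeq2, and 0 to 60 when 1 library was left out. Without DC only 2 and SynTem 2 and with the replicate block it was 21, only 3 of them among the 19. Genes called for the arm difference, 2 in all, became 1 with upper quartile scaling, 4 with the Y-linked covariate, 0 with the T cell covariate, 0 without DC only 2 and SynTem 2, 6 without these and with the replicate block, 0 without batch 3, 1 by voom and 25 by DESeq2, and 0 to 5 with 1 library left out. For both arms together DESeq2 called 3 and every other fit 0. All 19 genes kept their direction in every fit that tested them.

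Signs turned for 3 named genes. Cxcl9, at 0.34, became -0.20 with the replicate block, -0.21 with the Y-linked covariate and -1.23 without DC only 2 and SynTem 2 and with the block, and ranged from -0.68 to 1.62 with 1 library left out. Cxcl10, at -0.33, became 0.27 with the T cell covariate, 1.00 without batch 3 and 0.51 by voom, and ranged from -0.96 to 0.90 with 1 library left out. Ifi205 became -0.11 without DC only 2 and SynTem 2 and with the block. The cause was not tested. Over all named genes and alternatives 1399 values kept direction and side of the threshold, 262 no longer passed and 51 newly passed. Only the 19 called genes could stop passing, so all 262 belong to them. The 1399 include values of uncalled genes that stayed uncalled. Fits without 1 library assume that the remaining 2 of its group vary like the other groups.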

Other observations

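AA467197 and Slc30a4, which both rose in the pooled contrast, are neighbours on chromosome 2 (chr2:122636986-122641191 on the plus and chr2:122681233-122702663 on the minus strand, GRCm38). Their LPS arms were 1.13 and 0.22 on the log2 scale and their AlloTem arms 3.28 and 2.79. Of the genes with a symbol and a mean of at least 5 CPM, 69 had sets that did not overlap, 38 with the activating libraries above and 31 below.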
